A study of Mus musculus with 2 samples.

Results

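The 10 lipid uptake, storage and efflux genes described here are Cd36, Lpl, Fabp4, Fabp5, Plin2, Hilpda, Apoe, Abca1, Abcg1 and Pltp. They were chosen by name for their roles in lipid handling, out of 31053 genes listed for each library. All 10 were found in the deposited count tables. The samples were peripheral blood cells of db/db and wild-type (wt) mice, profiled by droplet single-cell RNA sequencing of transcript 3′ ends. Mice homozygous for the db mutation of Lepr, the leptin receptor gene, become obese and diabetic. Both groups were male C57BLKs/J mice aged 21 weeks, 3 per genotype. Per group, 200 µl of blood was drawn behind the eye into heparin and its red cells were lysed. Per the labels, the 1 library of each genotype stands for its 3 mice together, and nothing in the files maps a cell to a mouse. The values below therefore describe 2 libraries, and no test across animals was possible.

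Cells take up fatty acids from lipoproteins and albumin with the help of surface lipases and scavenger receptors, carry them on small cytosolic binding proteins and store the surplus as neutral lipid in droplets coated by perilipins. Cholesterol leaves myeloid cells through ATP-binding cassette transporters, which load apolipoproteins and lipoprotein particles. Several of these genes are textbook targets of the nuclear receptors PPARγ and LXR, and mouse nonclassical (Ly6C-low) monocytes, which patrol the vessel wall, are known for expressing Cd36.

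Promoters are shown for 3 members. Apoe is the member whose level differed between the libraries in the most classes, Abca1 is the LXR-controlled efflux gene that was also higher in db/db B cells, and Cd36 is the uptake gene that marks a monocyte subset. Each window runs 5′ to 3′ on the strand of the gene, from 250 bases before to 50 bases after an annotated start (RefSeq, GRCm38.p6). Capitals mark matches on either strand to the TATA box TATAAA, the GC box GGGCGG, the E-box CACGTG, the nuclear receptor half-site AGGTCA, or the repeat of GGTTA and GGTCA separated by 5 bases of any kind, a form known from the LXR element of Abca1 that was added to the search after this window had been read.
Abca1, chr4:53159846-53160145, minus strand: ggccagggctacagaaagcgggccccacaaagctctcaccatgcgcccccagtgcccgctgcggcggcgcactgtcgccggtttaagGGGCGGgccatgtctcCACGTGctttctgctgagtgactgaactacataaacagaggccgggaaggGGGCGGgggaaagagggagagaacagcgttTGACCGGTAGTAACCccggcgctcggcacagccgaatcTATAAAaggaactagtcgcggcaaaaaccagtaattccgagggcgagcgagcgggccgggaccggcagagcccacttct
Cd36, chr5:17835847-17836146, minus strand: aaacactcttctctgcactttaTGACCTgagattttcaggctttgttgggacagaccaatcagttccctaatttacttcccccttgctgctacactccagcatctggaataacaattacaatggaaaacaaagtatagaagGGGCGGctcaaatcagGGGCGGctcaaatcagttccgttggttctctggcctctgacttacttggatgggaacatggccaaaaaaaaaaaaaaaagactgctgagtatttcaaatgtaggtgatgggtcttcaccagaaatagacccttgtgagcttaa
Apoe, chr7:19699139-19699438, minus strand: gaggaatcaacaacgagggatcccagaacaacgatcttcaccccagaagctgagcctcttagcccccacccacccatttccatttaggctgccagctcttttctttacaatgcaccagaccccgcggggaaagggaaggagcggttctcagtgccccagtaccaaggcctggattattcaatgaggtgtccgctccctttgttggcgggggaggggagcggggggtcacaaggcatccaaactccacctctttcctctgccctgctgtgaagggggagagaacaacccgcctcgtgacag
Counted from the start with upstream bases negative, the Abca1 window held GGGCGG at -163 and -97, CACGTG at -147, TATAAA at -29 and the spaced repeat, on the other strand, at -67. The Cd36 window held GGGCGG at -109 and -93 and AGGTCA, on the other strand, at -228. None of the 5 patterns was found in the Apoe window shown, the most upstream of 3 for this gene in the table. Another Apoe window, chr7:19698572-19698871, held TATAAA at -96 and, on the other strand, at -100. Of 32851 windows of the same length in the table, 13.6% held TATAAA, 35.7% GGGCGG, 7.15% CACGTG and 16.3% AGGTCA, whereas 16 windows (0.0487%) held the spaced repeat. The counts come from transcript 3′ ends and do not tell which start a transcript used. The table also held windows for Plin2, Hilpda and Pltp.

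The db/db library held 19912 barcodes with 70039773 UMIs (unique molecular identifiers, each counting 1 captured transcript), and the wt library 16700 barcodes with 50540198 UMIs. Barcodes with 200 to 6000 genes and under 10% mitochondrial UMIs were kept, which left 6109 db/db and 5727 wt barcodes with medians of 2523 and 2562 UMIs. The mitochondrial limit removed 5.77% of db/db and 24.4% of wt barcodes that passed the gene limits. The libraries shared 91 barcode sequences, 11 of them among the kept ones. Lepr, the mutated gene, had 0 UMIs in both libraries, so it checks no label. Classes were named from marker genes after clustering without the 10 members, and each name stands for cells that look like that type. Monocytes numbered 369 in db/db and 125 in wt, B cells 2091 and 2187, T cells 530 and 716, NK cells 55 and 104, neutrophils 357 and 164, platelets 334 and 124, and erythroid barcodes 1763 and 1851. A cluster led by proximal tubule genes of the kidney held 108 db/db and 2 wt barcodes, and clusters that stayed unnamed held 493 and 448.

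Levels are in CPM, the UMIs of a gene per 1000000 UMIs of all barcodes of a class in a library. Ratios divide db/db by wt. All intervals are exact 95% intervals that cover counting error only, not the spread between animals. A member counted as measured in a class where its UMIs of the 2 libraries added up to 20 or more, and a log2 ratio of CPM + 10 of at least 1 in size is called past 2-fold. A sum over a class does not tell more transcripts per cell from more cells with the transcript.

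**Figure D1:**
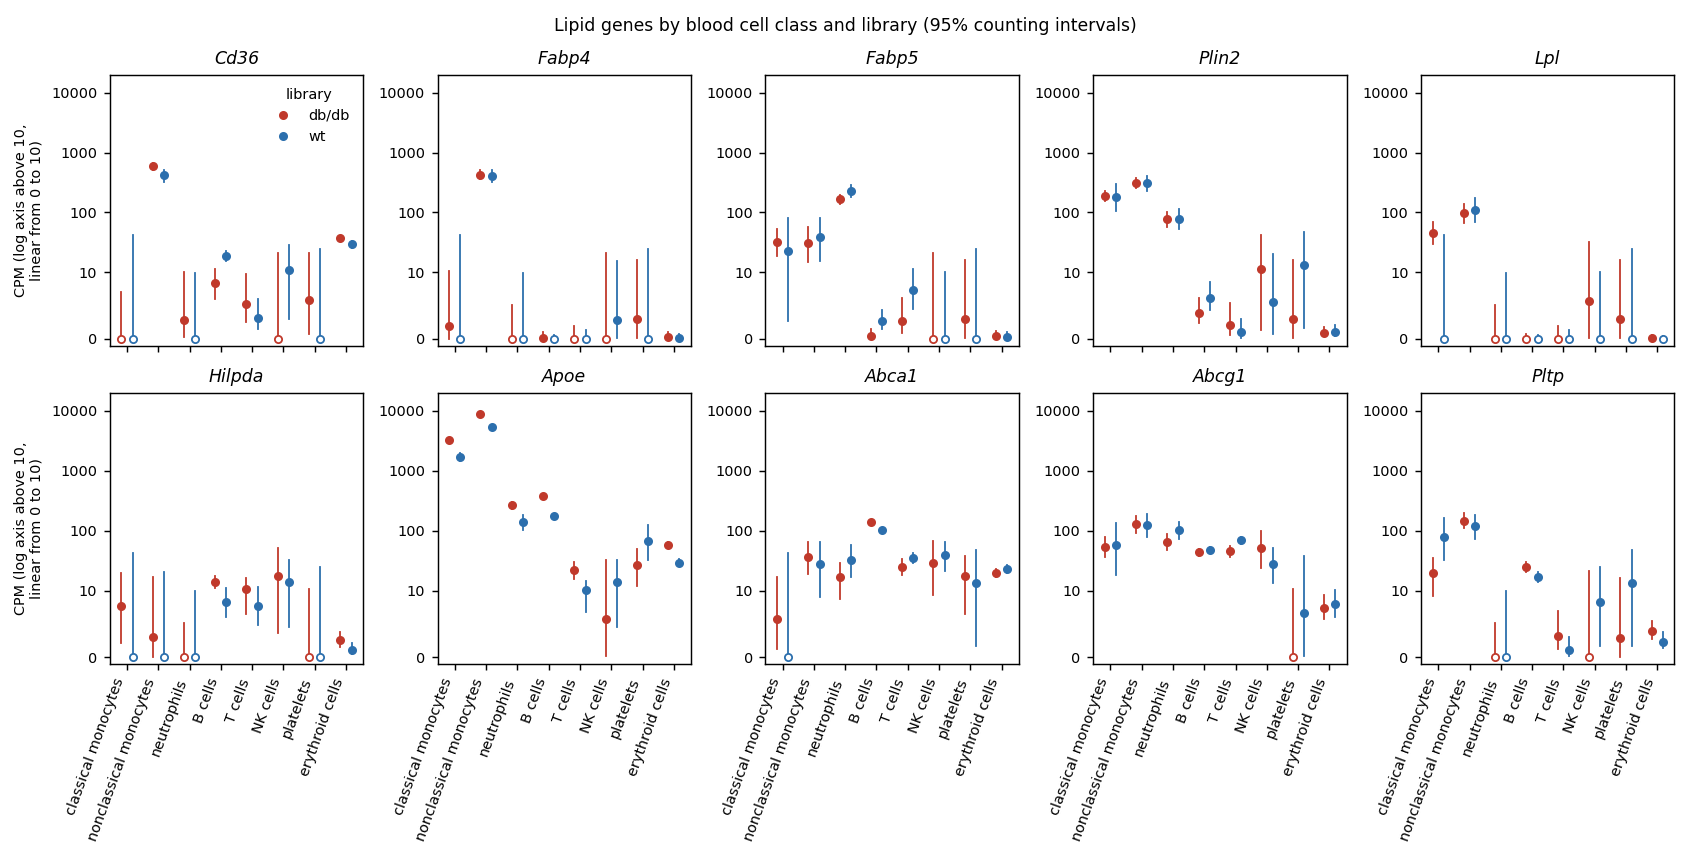
CPM of each of the 10 genes in 8 cell classes, db/db left (red) and wt right (blue), on an axis that is linear from 0 to 10 and logarithmic above; bars are 95% counting intervals and open points are 0 UMIs. Cd36, Fabp4 and Lpl are high in nonclassical monocytes, Fabp5 in neutrophils, Abca1 in B cells, and Apoe in both monocyte subsets, where db/db lies above wt.

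Cd36, a scavenger receptor that takes up long-chain fatty acids and oxidized lipoproteins, was at 585 CPM (191 UMIs) in db/db nonclassical monocytes and at 414 CPM (74 UMIs) in wt ones. The ratio was 1.41, with an interval of 1.08 to 1.88. Classical (Ly6C-high) monocytes held 0 Cd36 UMIs in both libraries. That 0 came from 519662 UMIs in db/db but only 87924 in wt, whose 13 barcodes allow up to 34.1 CPM at the limit of 3 counts that a 0 allows. Over all monocytes Cd36 was at 166 CPM in db/db and 169 CPM in wt (ratio 0.982, 0.780 to 1.25). Nonclassical cells made up 110 of 369 db/db and 58 of 125 wt monocytes. Neither neutrophils nor platelets held more than 2 Cd36 UMIs in either library.

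In erythroid barcodes, Cd36 was at 37.0 CPM in db/db and 29.3 CPM in wt (ratio 1.26, 1.06 to 1.5). The cluster led by Slc4a1 and Car2, genes of young red cells, was higher, with 73.6 CPM in db/db and 53.4 CPM in wt (ratio 1.38, 1.10 to 1.74). The other 3 erythroid clusters had ratios of 0.977 (0.580 to 1.68), 0.386 (0.0453 to 1.49) and 0.851 (0.511 to 1.49), so only the young red cells had an interval above 1. The clusters also differed in make-up, since the one at 0.386 held 83 db/db and 891 wt barcodes and the one at 0.851 held 585 db/db and 145 wt barcodes. Cd36 was at 6.15 CPM in db/db and 15.9 CPM in wt in the former, and at 29.8 and 35.1 CPM in the latter. The parts of make-up and of the young red cells in the ratio of 1.26 were not tested. Barcodes that were left out for under 200 genes, which are mostly haemoglobin, held 15.1 CPM in db/db and 15.9 CPM in wt. B cells ran the other way, at 8.34 CPM (42 UMIs) in db/db and 19.1 CPM (108 UMIs) in wt, a ratio of 0.438 (0.299 to 0.630). Of the wt UMIs, 66 came from the B cell cluster led by Vpreb3, a gene of immature B cells, which held 83 of the 2091 db/db B cells and 468 of the 2187 wt ones. Within that cluster Cd36 was at 19.2 CPM (4 UMIs) in db/db and 49.8 CPM in wt, a ratio of 0.386 with an interval of 0.102 to 1.03. Without it the log2 ratio in B cells was -0.14, against -0.66 with it. The larger B cell clusters, one led by Ighd and Fcmr and one by Ly6a and Zbtb20, had ratios of 0.681 (0.275 to 1.78) and 1.38 (0.781 to 2.41).

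Lpl, the lipase that frees fatty acids from triglyceride-rich lipoproteins, was found, among kept barcodes, in monocytes and hardly elsewhere. Nonclassical monocytes held 98.0 CPM (32 UMIs in 16 barcodes) in db/db and 112 CPM (20 UMIs in 11 barcodes) in wt, a ratio of 0.877 (0.486 to 1.62). Classical monocytes held 24 UMIs (46.2 CPM) in 9 of 87 db/db barcodes and 0 UMIs in the 13 wt barcodes. Against the limit of 3 counts for the wt 0, Lpl was at least 1.35-fold higher in db/db there, and the exact interval of the ratio, which also covers the counting error of the db/db UMIs, starts at 1.02. Lpl reached the 20-UMI minimum in this subset only through db/db. The parent cluster of the classical cells, led by Lyz2, Fn1 and Chil3, gave more counts but is not independent of them. It held 47 Lpl UMIs (39.1 CPM) in 18 of 191 db/db barcodes and 0 in 53 wt barcodes. That is at least 4.29-fold higher in db/db against the same limit, with an exact interval that starts at 3.36. There too Lpl reached 20 UMIs only through db/db, and the share of all genes past 2-fold in this cluster was not counted. Of those 18 barcodes, 4 carried any of 12 kidney proximal tubule markers, as did 27 of all 191, and 1 carried at least 3 of them. B cells, T cells and neutrophils had 0 Lpl UMIs in both libraries. At 3 counts, that allows up to 0.596 CPM in db/db B cells and 0.529 CPM in wt ones.

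Fabp4, a fatty acid binding protein of adipocytes and macrophages, was found almost wholly in the nonclassical subset and in mixed monocyte subclusters. It was at 426 CPM in db/db and 408 CPM in wt nonclassical monocytes, a ratio of 1.04 (0.780 to 1.40). Classical monocytes held 1 Fabp4 UMI in db/db and 0 in wt, and T cells and neutrophils held 0 in both libraries. Adipocyte markers (8 genes, among them Adipoq, Plin1 and Lep) were all at 0 in nonclassical monocytes of both libraries. Fabp5, a binding protein of the same family, was highest in neutrophils, at 165 CPM (118 UMIs) in db/db and 230 CPM (85 UMIs) in wt. The ratio was 0.718 (0.539 to 0.961), while the median log2 ratio over all genes measured in neutrophils was -0.19. T cells held 5 Fabp5 UMIs in db/db and 21 in wt (2.66 and 7.34 CPM, ratio 0.362, 0.107 to 0.988). Monocytes held 31.2 CPM in db/db and 31.0 CPM in wt (ratio 1.01, 0.584 to 1.82).

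Plin2, which coats lipid droplets in most cell types, was found in myeloid cells at nearly the same level in both libraries. It was at 312 CPM (102 UMIs) in db/db and 307 CPM (55 UMIs) in wt nonclassical monocytes, a ratio of 1.02 (0.725 to 1.44). Classical monocytes held 189 CPM in db/db and 182 CPM in wt (ratio 1.04, 0.607 to 1.88), and neutrophils 76.9 CPM in db/db and 78.3 CPM in wt (ratio 0.982, 0.615 to 1.60). These intervals leave room for differences of about the size seen for Cd36. B cells held 3.97 CPM in db/db and 6.18 CPM in wt. Hilpda, an inhibitor of the triglyceride lipase ATGL that is induced by hypoxia and fatty acids, had the opposite distribution, with more in lymphocytes than in myeloid cells. B cells held 13.9 CPM (70 UMIs) in db/db and 8.29 CPM (47 UMIs) in wt, a ratio of 1.68 (1.14 to 2.48). T cells held 10.6 CPM in db/db and 7.69 CPM in wt (ratio 1.38, 0.717 to 2.66). Neutrophils had 0 Hilpda UMIs in both libraries, and all monocytes together had 12 in db/db and 2 in wt.

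Apoe, the apolipoprotein that accepts cholesterol from macrophages and directs remnant particles to their receptors, was higher in db/db in monocytes, B cells, T cells, neutrophils and erythroid barcodes, each with a counting interval above 1. Nonclassical monocytes held 8775 CPM (2866 UMIs) in db/db and 5421 CPM (970 UMIs) in wt, a ratio of 1.62 (1.5 to 1.74). Per barcode, the 110 db/db cells ran over 0 to 110 UMIs with a median of 21, and the 58 wt cells over 0 to 74 with a median of 13, so the cells of the libraries overlapped. Classical monocytes held 3212 CPM in db/db and 1695 CPM in wt (ratio 1.90, 1.60 to 2.26). The wt value rests on 13 barcodes, 10 of which carried at least 2 markers of another blood cell class. Without all such barcodes the classical log2 ratio was -0.33, against 0.92 with them. Over all monocytes the ratio was 1.52 (1.44 to 1.60), from 4474 CPM in db/db and 2952 CPM in wt.

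B cells held 381 CPM (1920 UMIs) of Apoe in db/db and 174 CPM (987 UMIs) in wt, a ratio of 2.19 (2.03 to 2.37). The cluster led by Ighd and Fcmr, which held 1521 of the db/db and 630 of the wt B cells, was at 331 CPM in db/db and 175 CPM in wt. The cluster led by Ly6a and Zbtb20, with 487 db/db and 1089 wt cells, was at 540 CPM in db/db and 238 CPM in wt. The Vpreb3 cluster was low in both, at 14.4 CPM (3 UMIs) in db/db and 33.2 CPM (44 UMIs) in wt. Without it the log2 ratio in B cells was 0.84, against 1.09 with it. Apoe was unevenly spread over B cells. The tenth of barcodes with most Apoe held 64.9% of its UMIs in db/db and 79.0% in wt, and no barcode held more than 24 in db/db or 39 in wt.

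Lower levels with a similar ratio were found in other classes. Neutrophils held 264 CPM in db/db and 138 CPM in wt (ratio 1.92, 1.40 to 2.67). The tenth of db/db neutrophils with most Apoe held 86.8% of its UMIs. T cells held 21.8 CPM (41 UMIs) in db/db and 10.1 CPM (29 UMIs) in wt (ratio 2.15, 1.31 to 3.59). The T cell cluster led by Trbc2 and Lef1 held 17 UMIs in db/db and 22 in wt (ratio 1.34, 0.668 to 2.64). The one led by Cd8b1 held 24 and 7 (ratio 4.57, 1.91 to 12.6). In T cells the log2 ratio dropped to 0.21, against 0.66 with all of them, once barcodes with at least 4 markers of another blood cell class were left out. Erythroid barcodes held 58.5 CPM in db/db and 29.2 CPM in wt (ratio 2.00, 1.70 to 2.36), of which most came from a cluster that also carried B cell markers at 6421 CPM in db/db and 7555 CPM in wt. In the young red cell cluster, where B cell markers summed to 54.2 CPM in db/db and 161 CPM in wt, Apoe was at 2.93 CPM (8 UMIs) in db/db and 5.84 CPM (14 UMIs) in wt. The unnamed clusters held 275 CPM in db/db and 133 CPM in wt (ratio 2.06, 1.65 to 2.60). Platelets held 9 Apoe UMIs in db/db and 10 in wt, and NK cells 1 and 5. Among 3627 genes measured in monocytes, B cells, T cells, neutrophils and erythroid barcodes alike, 3 (0.0827%) had a ratio of at least 1.5 in all 5 classes, namely Apoe, Fkbp5 and Gpx3, and 12 had a ratio of wt over db/db of at least 1.5 in all of them. The cut of 1.5 was not among the planned settings, and the search was for genes with the direction of Apoe. Apoe passed it narrowly in monocytes, at 1.52, so its place among the 3 is no independent support.

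Gpx3 is among the proximal tubule markers, and kidney transcripts moved with the library. The 12 kidney markers summed to 35.3 CPM (178 UMIs, 11 of 12 seen, Slc5a2 at 0) in db/db B cells and 2.29 CPM (13 UMIs, 3 of 12 seen) in wt B cells. Monocytes held 31.7 CPM in db/db and 3.44 CPM in wt, and neutrophils 109 CPM in db/db and 2.70 CPM in wt. The 108 kidney-led db/db barcodes held 72 Apoe UMIs beside 1470 kidney marker UMIs, 0.0490 per marker UMI. In db/db, monocytes held 141 Apoe UMIs per kidney marker UMI, B cells 10.8, erythroid barcodes 1.57, T cells 0.5 and NK cells 0.0455. The part of kidney transcripts in the Apoe differences was not tested. Lyz2, the lysozyme gene of myeloid cells, had 113 UMIs beside the 1920 Apoe UMIs in db/db B cells and 119 beside 987 in wt B cells. Monocytes held 0.299 Apoe UMIs per Lyz2 UMI in db/db and 0.217 in wt, and B cells 16.99 in db/db and 8.29 in wt. T cells held 0.488 in db/db and 0.592 in wt, NK cells 0.25 in db/db and 0.278 in wt, and erythroid barcodes 0.700 in db/db and 0.707 in wt. The part of monocyte transcripts in the Apoe of these classes was not tested.

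**Figure D2:**
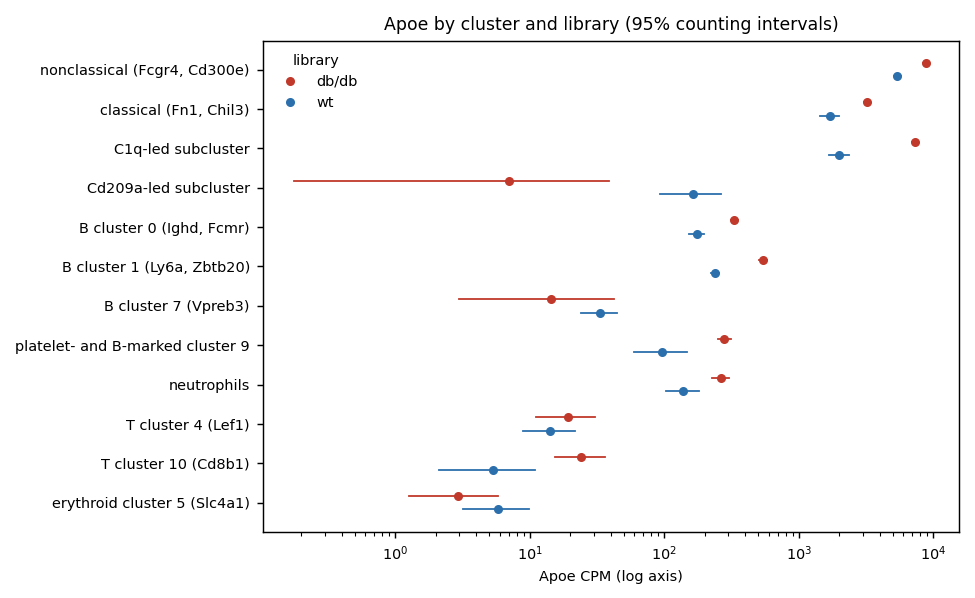
Apoe CPM (log axis) in 12 clusters and monocyte subclusters, db/db (red) drawn above wt (blue) in each row, with 95% counting intervals. The nonclassical, classical and C1q-led monocytes and B cell clusters 0 and 1 lie higher in db/db; the Vpreb3-led B cells, the Cd209a-led subcluster and the young red cells do not.

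Abca1, which loads cholesterol and phospholipid onto lipid-poor apolipoproteins, had most of its UMIs in B cells. They held 700 of the 1167 UMIs in kept db/db barcodes and 578 of the 1010 in kept wt ones. The unnamed clusters were also high, at 130 CPM in db/db and 164 CPM in wt when pooled (ratio 0.792, 0.623 to 1.01). They differed in make-up. The one led by Nrgn and Ctla2a, with 442 db/db and 78 wt barcodes, was at 130 CPM in db/db and 78.5 CPM in wt (ratio 1.66, 1.00 to 2.92). The one led by Gm42418, with 15 db/db and 307 wt barcodes, held 2 UMIs in db/db and 83 in wt (138 and 223 CPM). The one led by Slfn5 and Ifit3 had a ratio of 0.878 (0.398 to 1.84). B cells held 139 CPM (700 UMIs) in db/db and 102 CPM (578 UMIs) in wt, a ratio of 1.36 (1.22 to 1.52). The difference was not found in each B cell cluster. The Ighd and Fcmr cluster was at 151 CPM in db/db and 104 CPM in wt (ratio 1.45, 1.21 to 1.75), and the Ly6a and Zbtb20 cluster at 122 CPM in db/db and 124 CPM in wt (ratio 0.986, 0.822 to 1.18). T cells held 25.01 CPM in db/db and 35.0 CPM in wt (ratio 0.716, 0.495 to 1.02), an interval that includes 1. Monocytes held 19.7 CPM in db/db and 18.9 CPM in wt, and neutrophils 16.8 CPM in db/db and 32.4 CPM in wt from 12 UMIs each. The barcodes removed by the mitochondrial limit, 5.77% in db/db and 24.4% in wt, held Abca1 at 37.7 CPM in db/db and 154 CPM in wt. The part of this removal in the B cell difference was not tested.

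Abcg1, which exports cholesterol to mature high-density lipoprotein, was spread over leukocytes. T cells held 45.2 CPM (85 UMIs) in db/db and 68.9 CPM (197 UMIs) in wt, a ratio of 0.657 (0.503 to 0.851). The T cell cluster led by Lef1 and Trbc2 had a ratio of 0.611 (0.421 to 0.871) and the one led by Cd8b1 0.746 (0.499 to 1.10). Neutrophils held 65.7 CPM in db/db and 103 CPM in wt (ratio 0.640, 0.409 to 1.01). B cells were at 43.3 CPM in db/db and 47.5 CPM in wt (ratio 0.912, 0.759 to 1.09), and nonclassical monocytes at 129 CPM in db/db and 123 CPM in wt (ratio 1.05, 0.610 to 1.84). Pltp, which moves phospholipid between lipoproteins, was at 147 CPM in db/db and 117 CPM in wt nonclassical monocytes (ratio 1.25, 0.736 to 2.20). In B cells it was at 24.6 CPM (124 UMIs) in db/db and 16.9 CPM (96 UMIs) in wt, a ratio of 1.45 (1.10 to 1.92). The Ighd and Fcmr cluster had a Pltp ratio of 1.47 (0.937 to 2.37) and the Ly6a and Zbtb20 cluster 1.05 (0.677 to 1.62), intervals that include 1. Neutrophils held 0 Pltp UMIs in both libraries. Pltp overlaps Ctsa on the opposite strand (chr2:164839518-164857711, GRCm38) and Abcg1 overlaps Gm25447 (chr17:31057675-31117988). Whether the counting used strand is not given in the sources used here, which leaves the Pltp count uncertain. Gm25447 lies on the same strand as Abcg1, so strand could not tell the reads of that overlap apart.

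**Figure D3:**
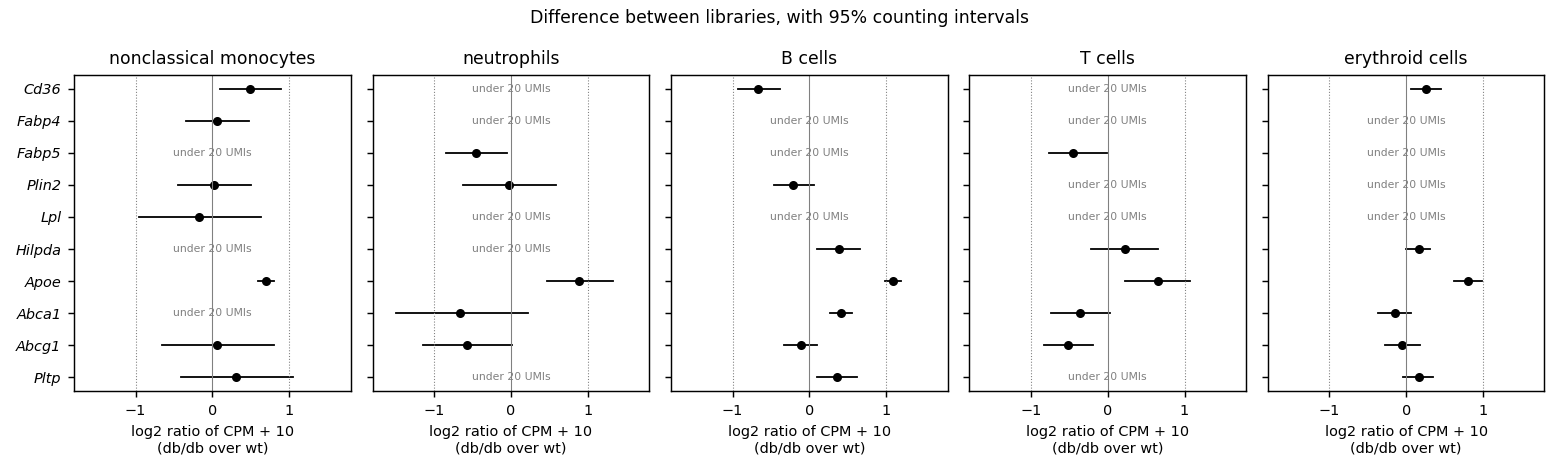
Log2 ratio of CPM + 10, db/db over wt, of the 10 genes in 5 classes, with 95% counting intervals; dotted lines mark a 2-fold difference and members under 20 UMIs have no point. Apoe lies above 0 in all 5 classes, and Abcg1 lies below 0 in T cells.

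Few members passed 2-fold. In B cells, Apoe alone did among 7 measured members, where 41 of 10079 measured genes (0.407%) did in either direction and 0.218% were higher in db/db. The median log2 ratio was 0.36 over the 7 members and -0.01 over all genes measured. In classical monocytes Lpl passed among 4 measured members, where 13.4% of 4122 genes did and 9.41% were higher in db/db, so that count is near its background. None passed among 9 measured members in monocytes (1.7% of 7782 genes), 7 in nonclassical monocytes (5.22% of 3828), 5 in T cells (0.316% of 8862), 5 in neutrophils (4.73% of 4125) and 6 in erythroid barcodes (0.559% of 8580). In NK cells and platelets no member reached 20 UMIs.

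Companion lists of 92 other lipid genes, 91 of them in the files, covered uptake, droplet storage and lipolysis, efflux with LXR signalling, and PPAR targets with fatty acid oxidation. In B cells 0 of 51 measured companions passed 2-fold, beside 0.407% of all measured genes, and their median log2 ratio of 0.01 stood beside -0.01 over all genes. In monocytes 2 of 50 passed, beside 1.7% of all measured genes. Apoc1, a neighbour of Apoe in the genome and an apolipoprotein of the same particles, was at 18.6 CPM (34 UMIs) in db/db and 3.44 CPM (2 UMIs) in wt, a ratio of 5.40 (1.38 to 46.4). Acsl4, which activates arachidonate by linking it to coenzyme A, was at 15.9 CPM (29 UMIs) in db/db and 43.0 CPM (25 UMIs) in wt, a ratio of 0.369 (0.208 to 0.656). By list, the median log2 ratio in monocytes was -0.14 for 8 measured uptake genes, 0.15 for 14 storage genes, 0.02 for 15 efflux genes and 0.10 for 13 oxidation genes, beside -0.04 for all genes. In nonclassical monocytes 2 of 22 companions passed, beside 5.22% of all measured genes, both lower in db/db and named after their values were seen. Acsl5, another acyl-CoA synthetase, was at 82.7 CPM in db/db and 212 CPM in wt (ratio 0.389, 0.229 to 0.655). Cpt1a, the gate of mitochondrial fatty acid oxidation, was at 42.9 CPM in db/db and 106 CPM in wt (ratio 0.404, 0.187 to 0.849).

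At equal depth, after thinning to 1000 UMIs, the share of barcodes with a UMI gave the same order for Apoe. It was 96.2% (90.4 to 98.9) in db/db and 85.5% (73.3 to 93.5) in wt nonclassical monocytes, and 20.3% (18.5 to 22.1) in db/db and 11.9% (10.5 to 13.3) in wt B cells. Shallower barcodes were left out, 6 db/db and 3 wt nonclassical monocytes and 32 db/db and 69 wt B cells. Before thinning, 33.4% of db/db and 19.5% of wt B cells held an Apoe UMI at medians of 2197 and 2424 UMIs. T cells, which are not known for Apoe expression, stood at 4.15% in db/db and 3.21% in wt before thinning, at medians of 3156 and 3614 UMIs. After thinning they stood at 1.82% (0.836 to 3.43) in db/db and 1.14% (0.495 to 2.24) in wt, intervals that overlap. Neutrophils stood at 11.8% (8.51 to 15.9) in db/db and 8.16% (4.29 to 13.8) in wt after thinning, which also overlap. Cd36 was found in 45.2% (35.4 to 55.3) of db/db and 38.2% (25.4 to 52.3) of wt nonclassical monocytes, intervals that overlap. Abca1 was found in 13.6% (12.2 to 15.2) of db/db and 10.1% (8.81 to 11.4) of wt B cells.

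**Figure D4:**
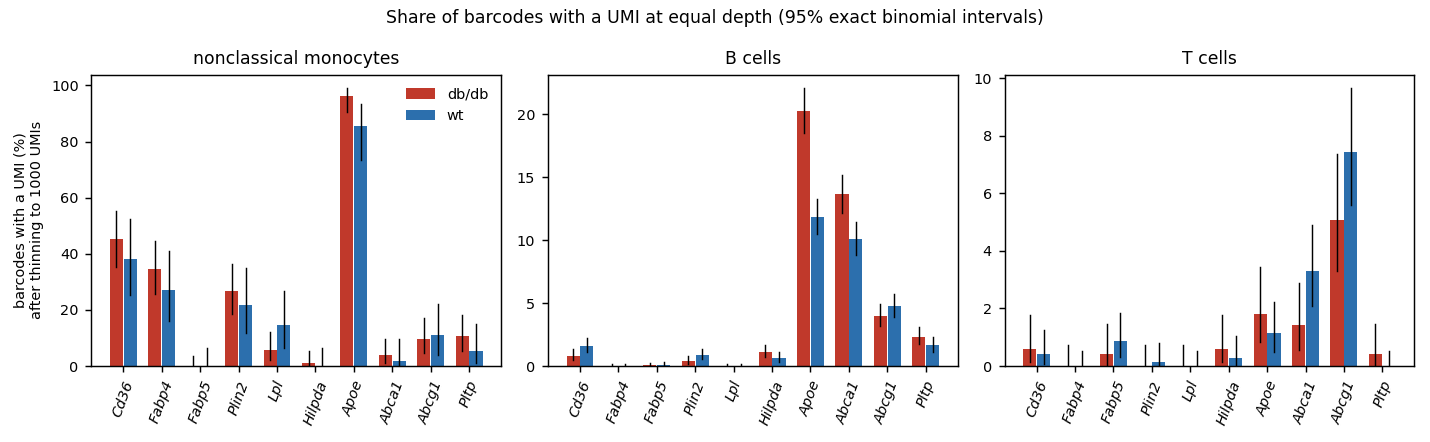
Percent of barcodes with at least 1 UMI of each gene after thinning to 1000 UMIs, db/db left (red) and wt right (blue), with 95% exact binomial intervals; the vertical axes differ between classes. Apoe shares are higher in db/db in nonclassical monocytes (96.2% against 85.5% in wt) and B cells (20.3% against 11.9% in wt).

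Within the thinned nonclassical monocytes, Plin2 was found in 38.3% of the 47 db/db barcodes with Cd36 and 17.5% of the 57 without it, and in 28.6% of the 21 wt barcodes with Cd36 and 17.6% of the 34 without it. For Fabp4, the shares were 40.4% with Cd36 and 29.8% without it in db/db, but 23.8% and 29.4% in wt. In B cells, Abca1 was found in 15.6% of db/db barcodes with Apoe and 13.2% of those without it, and in 17.9% of wt barcodes with Apoe and 8.998% of those without it. These are counts of barcodes within 1 library each and carry no test.

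Likeness of pattern was described by Pearson's r of log2(CPM + 10) over 18 points, each a class in 1 library with at least 20 barcodes. The points share their libraries, their clustering and their depth, so the values describe and test nothing. Cd36 was most like Cd300e (r = 0.91), Tcf7l2 (0.91) and Eno3 (0.90), and among members most like Fabp4 (0.93). Fabp4 was most like Tcf7l2 (0.99), Cd300e (0.99) and Lilra5 (0.98). For Apoe the nearest were BC028528 (0.96), Gngt2 (0.96) and Ceacam1 (0.96), and for Plin2 Sirpa, Ifitm6 and Tmem38b (each 0.97). Lpl was nearest to Arhgef10l (0.99), Tmem51 (0.98) and Ldlrad3 (0.97), and Pltp to Ggta1 (0.94), Ryr1 (0.94) and Lgmn (0.93). Fabp5 was nearest to Gm34084, Cebpd (both 0.98) and Nlrp3 (0.97). The lymphocyte-weighted members had other neighbours, with Dmxl1 (0.91), Cd200 and Strbp (both 0.87) for Abca1, Cytip (0.96), Msl2 (0.95) and Rassf5 (0.94) for Abcg1, and Atad3a (0.96), Timm9 (0.95) and Spg20 (0.94) for Hilpda. Between members, r was -0.07 for Apoe and Abca1, -0.47 for Fabp5 and Hilpda, and 0.89 for Apoe and Plin2.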

How the data were processed

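Blood cells of 1 db/db and 1 wt library (3 pooled mice each) were analysed. The deposited values are raw UMI counts per gene and barcode, made by the authors with Cell Ranger 3.0.2 on mm10, per the submitters' processing notes. The gene annotation and cell-calling settings are not given in the sources used here. No barcode held under 500 UMIs.

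Barcodes with 200 to 6000 genes and under 10% mitochondrial UMIs were brought to 10000 counts each, logged, and put through 1 joint clustering (2000 variable genes without the members, 30 principal components, 15 neighbours, Leiden resolution 1, scanpy 1.11.5, leidenalg 0.10.2, Python 3.11.15). A cluster took the class with most markers among its 50 leading genes. It stayed unnamed with under 3 of them, or where another class had more markers among its 10 leading genes. Monocytes were clustered again and subclusters named likewise from the subset lists. B cells lie mostly in different clusters in the 2 libraries. No doublet caller was used; barcodes with markers of several classes were left out as an alternative. Levels are class sums of UMIs in each library, as CPM with exact Poisson intervals, with exact conditional binomial intervals for ratios and Clopper-Pearson intervals for shares. With 1 library per group there is no test. Named genes were all members, companions past 2-fold in monocytes and B cells (at most 4 per direction), and the 3 most like genes per member. Members, lists and classes were chosen with earlier results of these data known, so agreement of a direction with them is not independent evidence. On simulated counts with 200 genes changed 4-fold, 98.5% were recovered in monocytes (7615 genes) and 88.5% in B cells (10094 genes). These shares hold for 4-fold changes only, and recovery of smaller differences was not tested. They also do not cover the spread between animals, which 1 library per group cannot give. Positions are from GENCODE M21 (GRCm38); TMM factors are from edgeR 4.0.16 in R 4.3.3.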

Additional observations from a re-analysis of the deposited data

Results flagged for a closer look

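Cd36 differed between the libraries in opposite directions in different classes. The ratio of db/db over wt CPM was 1.41 in nonclassical monocytes and 1.26 in erythroid barcodes, with intervals above 1, and 0.438 in B cells, with an interval below 1. Of 4 erythroid clusters, the young red cells had a ratio of 1.38 and the others 0.977, 0.386 and 0.851, and the log2 ratio in B cells was -0.14 without the Vpreb3 cluster, against -0.66 with it. The difference between the classes was not tested.

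Signal of members also appeared in barcodes removed for 10% or more mitochondrial UMIs, which no comparison above uses. There, 374 db/db barcodes held 16.9 CPM of Fabp4, 35.8 CPM of Plin2 and 50.7 CPM (51 UMIs) of Lpl, whereas 1849 wt barcodes held 2.26 CPM of Fabp4, 8.49 CPM of Plin2 and 0 UMIs of Lpl. Other members ran the other way. Abca1 was at 37.7 CPM in db/db and 154 CPM (272 UMIs) in wt, Abcg1 at 22.8 and 53.7 CPM, and Apoe at 95.4 and 126 CPM. Hilpda (3.97 and 4.53 CPM) and Pltp (0 and 8.49 CPM) were also lower in db/db. In these db/db barcodes the 12 kidney proximal tubule markers summed to 20466 CPM, against 177 CPM in the wt ones. All 30 removed db/db barcodes with Lpl carried at least 3 of the 12 markers, as did 100 of all 374.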

How the results depend on the processing

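Of 547 values of single members under an alternative, 500 kept their direction and 495 stayed within the interval of the value reported, over 37 results. With a minimum of 50 UMIs or no minimum a member keeps its value, so these alternatives could not count against it. Of the results past 2-fold, Apoe in B cells kept its sign in all 18 alternatives. Lpl in classical monocytes did so in the 10 alternatives where it was still measured, 4 of them within its interval. With 0 wt UMIs, no scaling or pseudocount could turn the sign of Lpl, so its kept sign says little. Others did not, among them Apoe in classical monocytes (log2 ratio 0.92, lowest -0.33) and Cd36 in B cells (-0.66, highest 0.27). The number of members past 2-fold in B cells (1) became 2 with a pseudocount of 1 CPM and 0 in the Ighd and Fcmr cluster alone or without the Vpreb3 cluster. The cluster alternatives and the filter with 4 markers were chosen after seeing the data. In T cells (0) it became 2 with a pseudocount of 1 CPM, and in nonclassical monocytes (0) it became 1 after thinning to 1000 UMIs. In neutrophils (0) it became 1 without haemoglobin UMIs, with median-of-ratios or TMM scaling, and without barcodes of several lineages; these 3 scalings put the median log2 ratio of all neutrophil genes at -0.04, 0 and 0.08, against -0.19. In classical monocytes (1), with 13 wt barcodes, it became 0 with a minimum of 50 UMIs or without several-lineage barcodes, 2 with TMM scaling or no minimum, 3 with a minimum of 500 genes, mitochondrial limits of 5% or 20% or members among the variable genes, and 4 at Leiden resolution 2. Companions past 2-fold in monocytes (2) became 1 with median-of-ratios or TMM scaling, a minimum of 50 UMIs or a mitochondrial limit of 20%, and 6 with a pseudocount of 1 CPM; in B cells (0) they became 2 without several-lineage barcodes. The causes were not tested. The log2 ratio of Apoe ran over 0.84 to 1.18 in B cells, 0.55 to 0.85 in nonclassical monocytes, 0.26 to 0.70 in all monocytes, 0.21 to 1.03 in T cells, 0.75 to 1.78 in neutrophils and -0.33 to 7.81 in classical monocytes. The several-lineage filter with 2 markers drops 62.0% of db/db and 66.4% of wt B cells, the one with 4 markers 4.88% and 6.04%. No paired analysis was possible because each group is 1 library with no replicate numbers.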

Other observations

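The monocyte subclusters that are neither classical nor nonclassical add values of their own. A subcluster led by C1qa, C1qb and C1qc, complement genes of tissue macrophages, held 35 db/db and 14 wt barcodes. Apoe was at 7340 CPM (1373 UMIs) in db/db and 2003 CPM (143 UMIs) in wt there, a ratio of 3.66 (3.08 to 4.38), and the 13 tissue macrophage markers summed to 1454 CPM in db/db and 574 CPM in wt. Fabp5 in it was at 80.2 CPM in db/db and 84.0 CPM in wt, and Plin2 at 171 CPM in db/db and 154 CPM in wt. A subcluster led by Cd209a and Flt3, genes of dendritic cells, held 21 db/db and 14 wt barcodes with 1 and 16 Apoe UMIs (7.01 and 163 CPM). A subcluster led by the platelet genes Gng11, Pf4 and Itga2b held 19 db/db and 4 wt barcodes, with Apoe at 10886 CPM in db/db and 11614 CPM in wt and Cd36 at 632 CPM in db/db and 560 CPM in wt.

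Pltp was highest in a subcluster led by Siglech, a gene of plasmacytoid dendritic cells, with 432 CPM (16 UMIs) in 7 db/db barcodes and 595 CPM (4 UMIs) in 1 wt barcode. In neutrophils the companion G0s2, an inhibitor of the lipase ATGL, was at 158 CPM (113 UMIs) in db/db and 70.2 CPM (26 UMIs) in wt, a ratio of 2.25 (1.46 to 3.59), and it was named after its values were seen. It is also on the list of neutrophil markers.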
